A study of Mus musculus with 29 samples.

Results

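The genes described here are 47 genes of G2 and mitosis, taken by symbol from a gene count table of mouse cardiac fibroblasts that lists 55357 genes. All 47 symbols were found, and all 47 passed the filter on low counts in each fit. They were read across 10 groups and 29 libraries: primary fibroblasts of young hearts (YCF) and of aged hearts (ACF), each either freshly isolated or kept for 48 h on one of 4 DECIPHER substrates, which join heart extracellular matrix to a hydrogel. The labels name the substrates SoftY, StiffY, SoftA and StiffA, read here as soft or stiff gels with matrix of young (Y) or aged (A) hearts. Each group held 3 libraries except young cells on SoftY, which held 2. The sample titles number the libraries of a group as biological replicates (bio rep). The labels give no mouse strain, sex or age in months and no genetic change, and they do not tie a replicate to an animal. Each p-value rests on the spread among these replicates, pooled over the groups of a fit and moderated towards a trend across genes. How far that spread reflects different animals is not given.

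Mitosis runs on a small set of proteins that are made late in the cell cycle and destroyed at its end. Cyclins A and B switch on the kinase Cdk1, polo and aurora kinases build the spindle, the checkpoint holds anaphase until every kinetochore is attached, and the anaphase-promoting complex then destroys securin and the cyclins. Most of these genes are transcribed together: the DREAM complex keeps them silent in resting cells, and the MuvB proteins with Foxm1 and B-Myb raise them in G2, through a promoter element called CHR (cell cycle genes homology region, TTTGAA) and CCAAT boxes bound by NF-Y. Cardiac fibroblasts are mostly resting cells in the adult heart and divide after injury or when placed in culture.

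Promoters of 5 members are printed because they stand for entry, kinase, exit and checkpoint genes that the results return to. Each runs from 120 bases before to 30 bases after the transcription start, on the strand of the gene, as given by RefSeq for GRCm38.p6, and capitals mark TTTGAA (or its reverse complement TTCAAA) and CCAAT.
Ccnb1 (chr13:100786457-100786606, minus strand): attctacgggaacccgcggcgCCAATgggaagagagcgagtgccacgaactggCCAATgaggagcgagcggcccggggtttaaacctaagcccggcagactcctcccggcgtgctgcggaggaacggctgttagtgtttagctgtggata
Ccnb2 (chr9:70421525-70421674, minus strand): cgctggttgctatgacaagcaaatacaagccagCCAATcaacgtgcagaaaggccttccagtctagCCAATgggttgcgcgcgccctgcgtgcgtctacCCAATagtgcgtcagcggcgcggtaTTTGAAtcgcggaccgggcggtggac
Plk1 (chr7:122159315-122159464, plus strand): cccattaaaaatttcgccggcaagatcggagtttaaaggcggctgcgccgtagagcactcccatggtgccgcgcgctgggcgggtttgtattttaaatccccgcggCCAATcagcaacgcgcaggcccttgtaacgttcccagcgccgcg
Cdc20 (chr4:118437314-118437463, minus strand): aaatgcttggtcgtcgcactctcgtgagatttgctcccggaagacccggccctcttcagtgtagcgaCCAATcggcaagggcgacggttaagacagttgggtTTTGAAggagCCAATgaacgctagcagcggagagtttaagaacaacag
Bub3 (chr7:131560250-131560399, plus strand): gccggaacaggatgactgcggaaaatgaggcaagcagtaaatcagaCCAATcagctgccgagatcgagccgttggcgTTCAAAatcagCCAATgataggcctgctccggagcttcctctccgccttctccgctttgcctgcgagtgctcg
The Ccnb2 stretch held 3 CCAAT boxes and a TTTGAA, Cdc20 held 2 CCAAT boxes and a TTTGAA, and Bub3 held 2 CCAAT boxes with the element on the reverse strand. Ccnb1 held 2 CCAAT boxes and no TTTGAA, and the match of Plk1 began 31 bases past the start, beyond the stretch shown.

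Over the longer windows of the reference table, from 250 bases before to 50 bases after the start, 39 of the 47 genes had an entry and gave 43 windows. TTTGAA was present on either strand in 31 of the 39 genes (79.5%), against 20.2% of all 27025 genes with a window. CCAAT was present in 30 (76.9%) against 41.1%, and both motifs in 27 (69.2%) against 7.97%. The TTTGAA matches lay close to the start: 28 genes (71.8%) had one within 50 bases of it, against 5.72% of all genes. The 8 genes with no TTTGAA in the window were Birc5, Bub1, Ccnb1, Cenpe, Mad2l1, Nuf2, Nusap1 and Pttg1. Of these, Birc5, Mad2l1, Nuf2, Nusap1 and Pttg1 also had no CCAAT. A match is a run of letters and was not tested as a bound site.

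**Figure D1:**
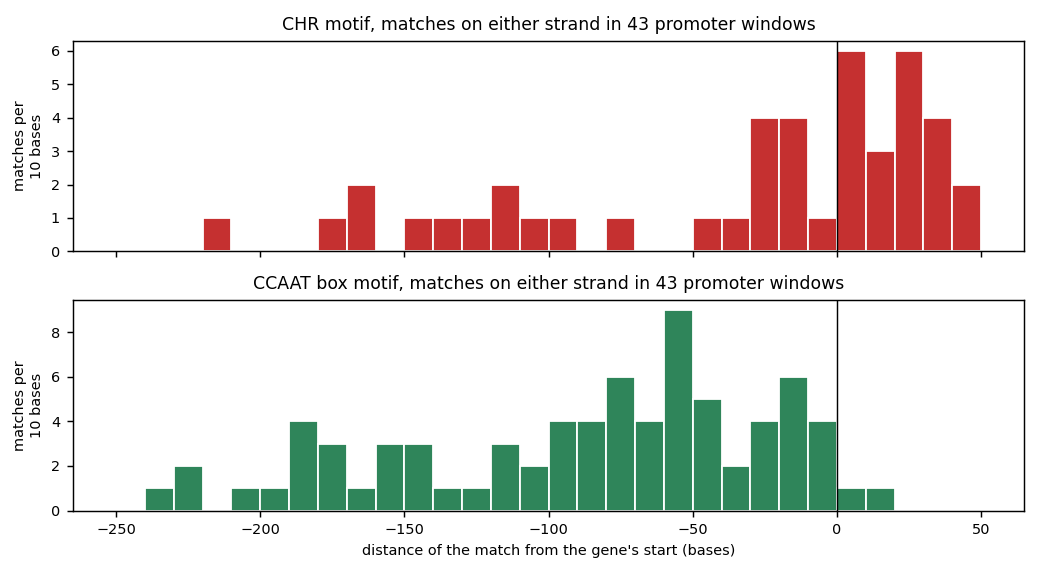
Histograms of the distance in bases from the transcription start (x axis, 10-base bins) of TTTGAA matches and of CCAAT matches (y axis, number of matches) in 43 promoter windows of 39 mitosis genes. The 44 TTTGAA matches gather at the start, with 32 within 50 bases of it and a median of -10, while the 76 CCAAT matches lie further upstream, with a median of -72.5.

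Library totals ran from 1192668 to 3275089 counts, and 4 libraries held under 1500000. Levels are given as CPM, counts scaled to a common library total with TMM factors, and are compared between samples, not between genes of different length. Fibroblast markers were detected in full, 10 of 10 in every group, with summed levels of 6801 to 8872 CPM in fresh and 19815 to 32093 CPM in cultured libraries. The labelled library letters follow culture and substrate and the library numbers follow cell age, so any preparation that followed them cannot be told apart from those conditions. The processed pseudogene Ccnb1-ps took counts equal to 14.9 to 34.9% of those of Ccnb1 per library, so reads of the pair may be split and the level of Ccnb1 is uncertain.

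Summed over the 47 genes, fresh young fibroblasts stood far above every other group. Their 3 libraries lay between 6106 and 6278 CPM, or 0.651 to 0.673% of all counts, and fresh aged libraries between 2114 and 2188 CPM. Of the cultured groups, 3 lay close above fresh aged cells, with ranges that overlap each other. They were young cells on SoftA at 2208 to 2357 CPM, aged cells on SoftY at 2191 to 2416 and young cells on SoftY at 2274 to 2349. Young cells on StiffA followed at 2364 to 2514, a range that overlaps that of aged cells on SoftY. Then came aged cells on StiffY at 2604 to 2656 and on SoftA at 2576 to 2667, which overlap, aged cells on StiffA at 2883 to 3014, and young cells on StiffY at 3241 to 3344 CPM. By gene, fresh young cells had the highest mean of the 10 groups for 46 of 47 members, and Pttg1 was the exception. In bulk RNA, fewer dividing cells and less mitotic RNA in each dividing cell cannot be told apart.

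**Figure D2:**
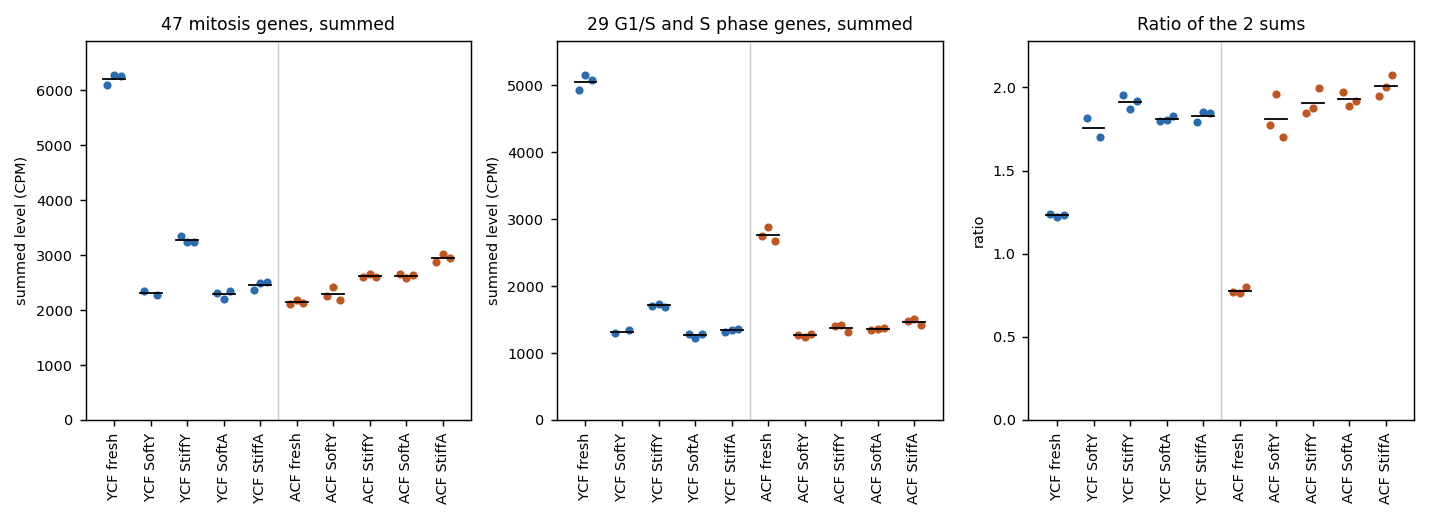
Summed CPM of the 47 mitosis genes, summed CPM of 29 genes of G1/S and S phase, and the ratio of the sums (y axes), one point per library in the 10 groups (x axis), with young cells in blue, aged cells in orange and bars at the group means. Fresh young libraries reach 6106 to 6278 CPM of mitosis genes, and every cultured library has a ratio of 1.70 to 2.07, above the 1.22 to 1.24 of fresh young and the 0.761 to 0.801 of fresh aged cells.

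Fresh aged fibroblasts carried less mitotic RNA in every role. Of the 47 genes, 46 were lower in aged than in young fresh cells and none higher (edgeR quasi-likelihood test, Benjamini-Hochberg adjusted p under 0.05), where 16.8% of all genes tested were called lower and 15.0% higher. The median log2 fold of the members was -1.70, against -0.02 over all genes, and the range ran from -2.62 to 0.14. The young and aged libraries did not overlap for those 46 genes, a separation that 21.4% of all genes showed in this direction.

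The 7 genes of entry into mitosis were all lower. Cdk1, the kinase that drives entry (ENSMUSG00000019942, chromosome 10, 69170976 to 69188769 in mm39), was measured at 186, 182 and 188 CPM in young and 64.0, 67.5 and 75.6 CPM in aged fresh cells. All aged libraries were low, and Cdk1 fell by a log2 fold of -1.46 ± 0.09 (SE, adjusted p = 2.57e-08). Cdc25c, the phosphatase that activates Cdk1, stood at 36.3, 31.9 and 32.7 CPM in young against 4.95, 6.63 and 5.09 CPM in aged cells. It had the widest gap of the 47 genes, a log2 fold of -2.62 ± 0.22 (adjusted p = 4.54e-07) or 6.17-fold. The cyclins Ccna2, Ccnb1 and Ccnb2, the transcription factor Foxm1 and Cdca3, a trigger of Wee1 turnover, complete the role, which had a median of -1.70.

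Spindle kinases, checkpoint and kinetochore genes were lower too. Tpx2, which activates aurora A on microtubules (ENSMUSG00000027469, chromosome 2, 152689884 to 152737242), gave 230, 225 and 215 CPM in young and 70.2, 89.9 and 60.3 CPM in aged fresh cells. Plk1, polo-like kinase 1, had the largest fold of its role (-2.01 ± 0.09, adjusted p = 1.12e-09). Bub1b, the checkpoint protein BubR1, fell by a log2 fold of -2.02 ± 0.13 (adjusted p = 3.22e-08). Cenpa, the centromeric histone H3 (ENSMUSG00000029177, chromosome 5, 30824121 to 30832175), gave 138, 133 and 136 CPM in young and 37.6, 36.5 and 38.4 CPM in aged cells, an even separation with a log2 fold of -1.89 ± 0.10. Cenpf, an outer kinetochore protein that accumulates in G2, fell by 4.70-fold (-2.23 ± 0.12 on the log2 scale, adjusted p = 5.5e-09). All 6 kinetochore and centromere genes were lower, with a median of -1.79.

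Bub3 was the mildest of the 46. This checkpoint subunit (ENSMUSG00000066979, chromosome 7, 131161951 to 131173625) also works outside mitosis, and it read 363, 390 and 380 CPM in young and 282, 266 and 275 CPM in aged fresh cells. The groups did not overlap, and the gap was 1.41-fold (log2 -0.50 ± 0.06, adjusted p = 1.92e-05). Its promoter carries both motifs, as printed above.

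Chromosomal passengers, spindle motors and cytokinesis genes moved by similar amounts. Cdca8, the passenger subunit borealin (ENSMUSG00000028873, chromosome 4, 124812258 to 124833105), gave 207, 222 and 214 CPM in young against 70.2, 65.9 and 53.7 CPM in aged fresh cells. Its kinase partner Aurkb, aurora B, had the largest fold of the complex (-1.88 ± 0.11, adjusted p = 1.84e-08). Kif22, a chromosome-arm kinesin (ENSMUSG00000030677, chromosome 7, 126626901 to 126641644), gave 181, 182 and 181 CPM in young and 53.3, 60.1 and 49.8 CPM in aged cells, and Kif11, the bipolar spindle motor Eg5, a log2 fold of -2.02 ± 0.12. Anln, the cytokinetic scaffold anillin (ENSMUSG00000036777, chromosome 9, 22243308 to 22300485), gave 323, 345 and 353 CPM in young and 65.2, 105 and 102 CPM in aged cells, with 1 aged library below the other two. Kif20a, a kinesin of the central spindle, had a log2 fold of -1.96 ± 0.09 (adjusted p = 1.63e-09). Smc4, a condensin core subunit (ENSMUSG00000034349, chromosome 3, 68912071 to 68941957), gave 216, 232 and 208 CPM in young and 82.2, 84.5 and 89.7 CPM in aged cells, and Mki67, the proliferation antigen Ki-67, had the largest fold among chromosome structure genes (-2.08 ± 0.12).

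Pttg1 stood outside the pattern. It encodes securin, the inhibitor of separase that is destroyed at anaphase (ENSMUSG00000020415, chromosome 11, 43311077 to 43317079). Fresh young libraries read 75.0, 72.7 and 67.8 CPM and fresh aged libraries 90.0, 68.8 and 84.6 CPM, and the groups overlapped. The log2 fold of 0.14 ± 0.12 did not pass the test (adjusted p = 0.418), and its 95% interval, -0.10 to 0.37, excludes the median of the members. The other exit genes did pass, Cdc20, the activator of the anaphase-promoting complex, with a log2 fold of -1.87 ± 0.13.

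**Figure D3:**
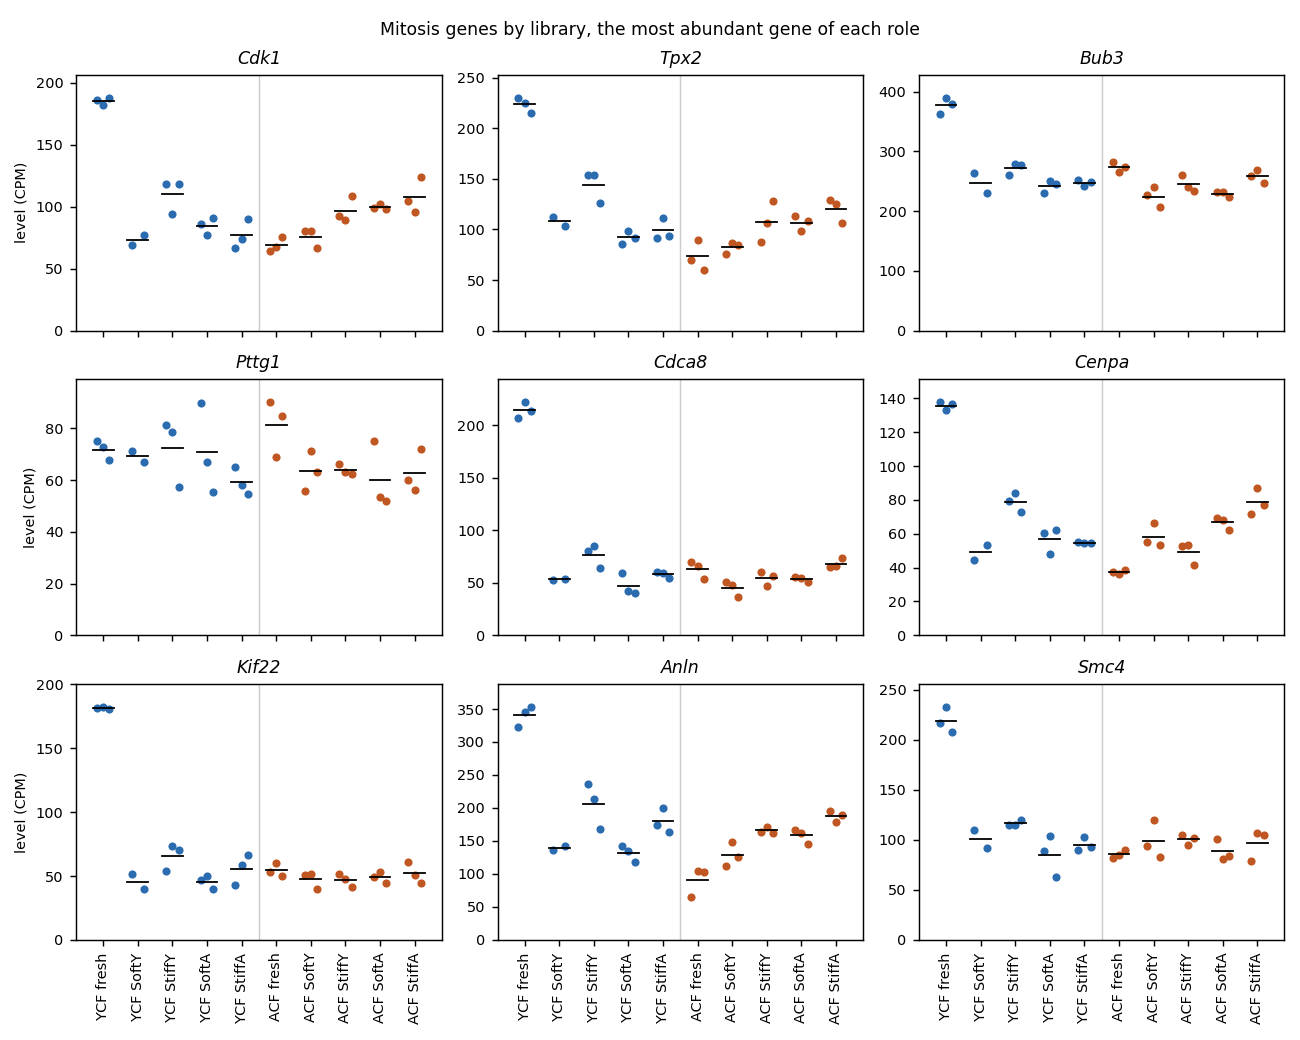
CPM per library (y axis) of the member with the highest mean CPM in each of 9 roles, in the 10 groups (x axis), with young cells in blue, aged cells in orange and bars at the group means. In 8 panels fresh young cells stand above all other groups, as with Cdk1 at 182 to 188 CPM against 64.0 to 75.6 in fresh aged cells, while the Pttg1 groups overlap.

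Markers of other cells were read in the same fresh libraries, where 15.0% of all genes tested were higher in aged cells and 16.8% lower. Of 12 macrophage and myeloid markers, 9 were tested and 6 were higher in aged cells, and their summed level was 213 to 222 CPM in young and 394 to 436 CPM in aged libraries. Neutrophil markers summed to 0.467 to 4.45 CPM in young and 9.50 to 12.4 CPM in aged libraries, with S100a9 and Retnlg at 0. Endothelial markers, 2 of 9 tested higher, summed to 150 to 169 and 204 to 218 CPM. Fibroblast markers summed to 8339 to 8872 CPM in young and 6801 to 7266 CPM in aged libraries. No lymphocyte, cardiomyocyte or epicardial marker passed the filter in fresh cells, and 1 of 2 pericyte markers was lower in aged cells. The part of other cells in the lower mitosis level was not tested.

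Other lists of the cell cycle were read in the same fresh libraries, against the same shares of all genes, 15.0% higher and 16.8% lower. Of 60 further mitosis genes, 58 were tested and 57 were lower in aged cells, with a median log2 fold of -1.63, among them Cit, the citron kinase of cytokinesis (-2.28 ± 0.13), Fam83d (-2.07 ± 0.11), Tacc3 (-1.65 ± 0.10) and Hjurp, the chaperone of Cenpa (-1.16 ± 0.07). Genes of G1/S and S phase were lower in 27 of 28 tested, with a smaller median of -0.90, such as Rrm1 (-1.17 ± 0.07) and Rrm2 (-0.87 ± 0.06), subunits of ribonucleotide reductase, and Mcm2 of the replicative helicase (-1.07 ± 0.08). Subunits and regulators of the anaphase-promoting complex were lower in 8 of 17 (47.1%), with none higher. Cdc23 (-0.89 ± 0.08), Anapc5 (-0.56 ± 0.06) and the inhibitor Fbxo5 (-1.35 ± 0.16) were among the lower ones. Of 15 DREAM, MuvB and NF-Y genes, 6 were lower (40%) and none higher. Tfdp2 (-1.46 ± 0.16) and the pocket protein Rbl2 (-0.80 ± 0.17) were among those 6. Of 6 G1 cyclins and kinases, 2 cyclin D genes were higher (33.3%), Ccnd1 at 0.57 ± 0.07 and Ccnd2 at 0.47 ± 0.06. The other 4 were lower (66.7%), the third cyclin D gene Ccnd3 among them, with Cdk6 at -1.04 ± 0.09 and Cdk2 at -0.62 ± 0.09. A list of cell cycle brakes and genes of the p53 pathway, which includes the p53 inhibitor Mdm2, had 15 genes tested. Of these brake and p53 genes, 4 were higher (26.7%) and 6 lower (40%). Cdkn1a at 1.16 ± 0.08, Mdm2 at 1.16 ± 0.08 and Ccng1 at 0.86 ± 0.09 were higher, and Cdkn2d was lower at -1.68 ± 0.14.

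Culture for 48 h lowered the mitosis genes of young cells. Averaged over the 4 substrates, 46 of 47 were lower than in fresh young cells and none higher (edgeR quasi-likelihood test on all 29 libraries), where 29.9% of all genes tested were lower and 27.1% higher. The median log2 fold was -1.38, the range -2.02 to -0.08, cultured and fresh libraries did not overlap for 46 genes (19.3% of all genes), and Pttg1 was again the exception (-0.08, adjusted p = 0.579). Cdk1 read 66.7 to 118 CPM in the 11 cultured young libraries, all below the 182 to 188 CPM of fresh ones. This comparison and the one of fresh age share the fresh young libraries, so a high level there enters both.

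The steepest falls were in the checkpoint kinase and the passenger complex. Ttk, the kinase Mps1 that starts the checkpoint, dropped 4.06-fold (log2 -2.02 ± 0.18, adjusted p = 2.67e-11). Aurkb dropped 4.01-fold (-2.00 ± 0.11), and Cdca8, at 39.9 to 84.7 CPM in culture, 3.71-fold (-1.89 ± 0.09), so all 4 passenger genes fell with a median of -1.93. Cdc25c (-1.90 ± 0.21), Plk1 (-1.86 ± 0.09), Kif22 (-1.78 ± 0.11) and Ncapg, a condensin subunit (-1.74 ± 0.17), led their roles. Cytokinesis and kinetochore genes fell less, with medians of -1.23 and -1.22. Anln gave 119 to 237 CPM in cultured young libraries against 323 to 353 fresh. Bub3 fell least of the 46, to 230 to 279 CPM (log2 -0.58 ± 0.06).

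In aged cells the same culture moved the genes in both directions. Against fresh aged cells, 25 of 47 were higher and 5 lower, where 29.9% of all genes were higher and 32.5% lower, with a median log2 fold of 0.35 and a range of -0.51 to 1.12. Without fresh aged library 1 the count of higher genes was 18. Ccnb2, cyclin B2, rose most: fresh aged libraries read 40.0, 42.7 and 33.3 CPM and the 12 cultured ones 66.5 to 104 CPM, with no overlap and a gain of 2.17-fold (log2 1.12 ± 0.11, adjusted p = 1.69e-10). By role, all 6 kinetochore and centromere genes rose, with Cenpf at 0.83 ± 0.12 and Cenpa at 0.73 ± 0.10. Of 6 spindle motors and binders, 5 rose, led by Nusap1, which bundles spindle microtubules (0.90 ± 0.16), and of 7 cytokinesis genes 4 rose, led by Prc1, the cross-linker of the central spindle (0.84 ± 0.10), with Anln at 0.80 ± 0.11. Entry genes rose in 4 of 7, chromosome structure genes in 3 of 6 with Mki67 at 0.63 ± 0.13, and Bub1b of the checkpoint by 0.85 ± 0.12.

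The 5 genes that fell in cultured aged cells were spread over 4 roles. Birc5, the passenger subunit survivin, fell most (-0.51 ± 0.12, adjusted p = 5.71e-04), from 47.9, 45.6 and 43.1 CPM to 23.6 to 40.6 CPM. Incenp, the scaffold of the same complex, fell by -0.48 ± 0.14, so that 2 of 4 passenger genes fell and none rose. Pttg1 (-0.39 ± 0.12), Smc2 of condensin (-0.33 ± 0.10) and Bub3 (-0.20 ± 0.06) were the others. Cdca8 (-0.21, adjusted p = 0.0934), Kif22 (-0.15, adjusted p = 0.283) and Smc4 (0.16, adjusted p = 0.218) did not pass the test.

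**Figure D4:**
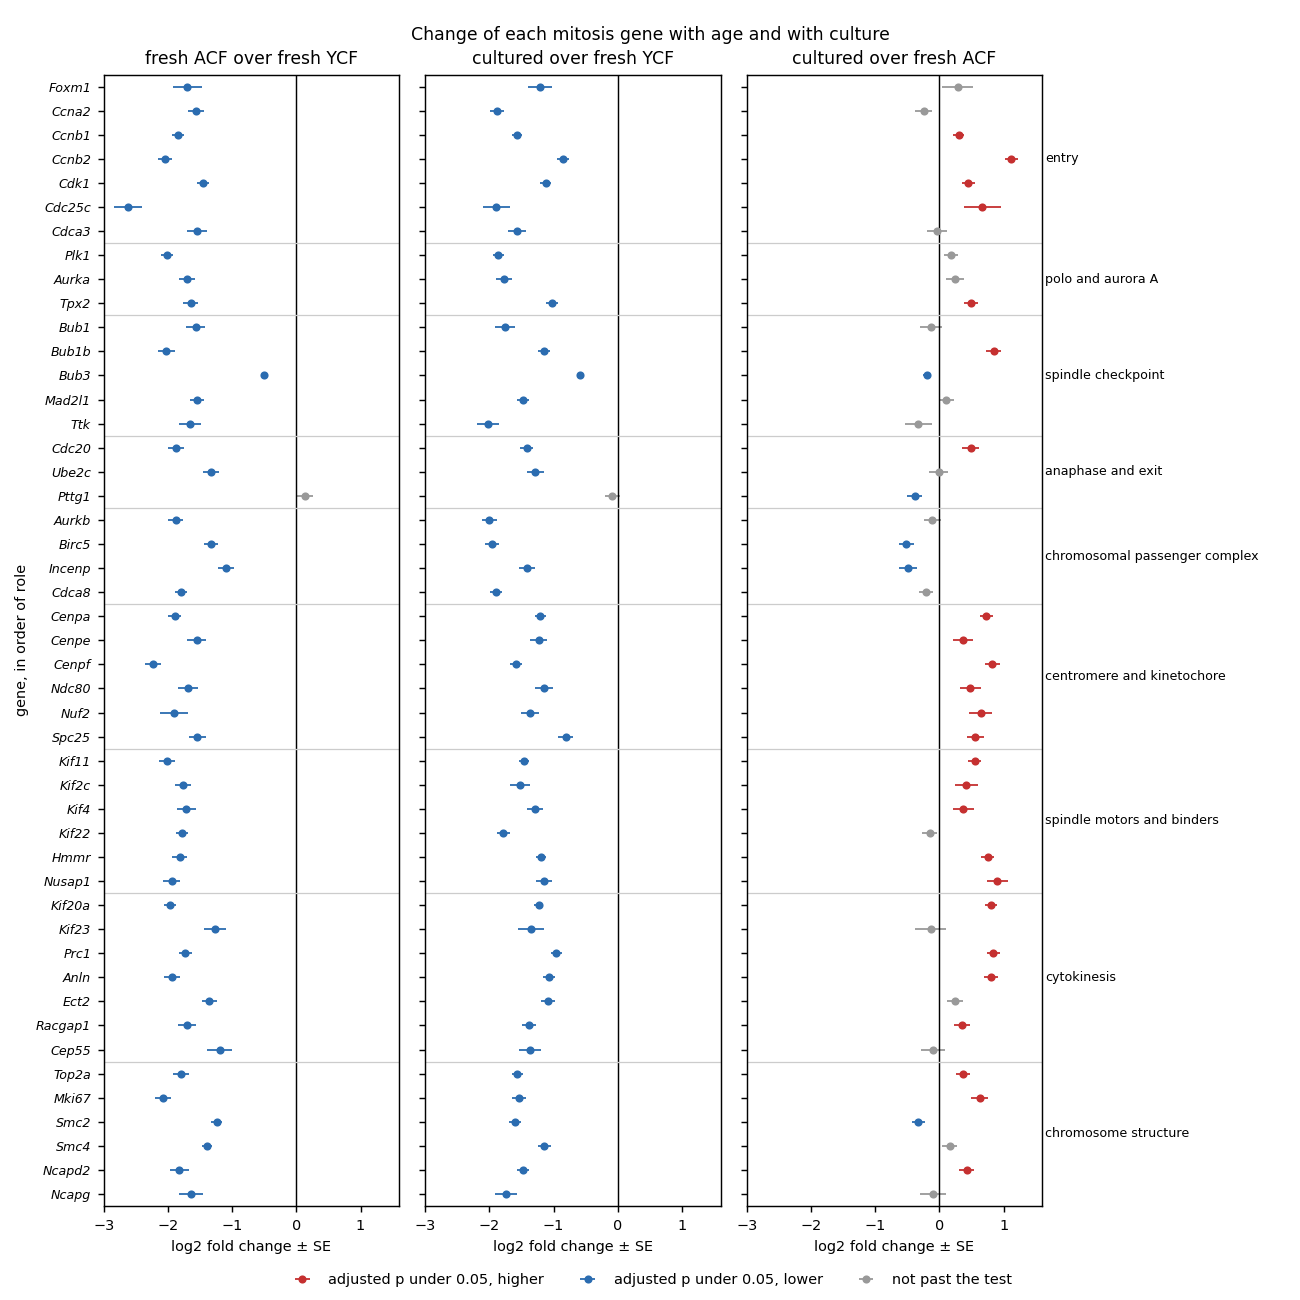
Log2 fold with its SE (x axis) of each of the 47 genes, grouped by role (y axis), for aged over young fresh cells, cultured over fresh young cells and cultured over fresh aged cells; red is higher, blue lower and grey not past the test. The first and second panels are blue for 46 genes, and the third holds 25 red and 5 blue genes.

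The effect of culture differed between the ages for 46 of 47 genes, all with a higher log2 fold of culture in aged cells (interaction of culture and cell age, 10.5% of all genes called in this direction and 10.1% in the other). The median difference of log2 folds was 1.68. Cdc25c had the widest (2.56 ± 0.36), followed among the leaders of the roles by Cenpf (2.41 ± 0.16), Mki67 (2.17 ± 0.18), Nusap1 (2.06 ± 0.21), Plk1 (2.05 ± 0.14) and Kif20a (2.04 ± 0.12). Pttg1 differed by -0.30 ± 0.17 and did not pass (adjusted p = 0.234). The difference is built from all 4 sets of libraries: it is the age gap in culture minus the age gap in fresh cells. Those gaps had member medians of 0.06 and -1.70. The interaction therefore mostly restates the fresh gap and is not a separate result.

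Genes of DNA replication fell in culture at both ages, where 29.9% of all genes were lower in young and 32.5% in aged cells. Of 29 genes of G1/S and S phase, 26 fell and 1 rose in cultured aged cells (median log2 fold -1.13), and 28 fell and 1 rose in cultured young cells (median -1.95). Mcm5, a helicase subunit, had log2 folds of -2.48 ± 0.09 for young and -1.45 ± 0.09 for aged cells, Mcm2 by -2.34 ± 0.08 and -1.46 ± 0.08, and Rrm2 by -2.16 ± 0.07 and -1.37 ± 0.07. The one that rose in both was E2f1, an activator of S phase genes. The sum of the mitosis genes over the sum of these genes was 1.70 to 2.07 in cultured libraries, 1.22 to 1.24 in fresh young and 0.761 to 0.801 in fresh aged libraries, with no overlap.

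Other lists of the cell cycle are read in culture against the same shares of all genes, 27.1% higher and 29.9% lower in young and 29.9% higher and 32.5% lower in aged cells. Of 58 further mitosis genes, young cells showed 56 lower (96.6%) and 1 higher, and aged cells 13 higher (22.4%) and 5 lower (8.62%), both under the share of all genes. There Psrc1, a spindle protein, rose by 2.12 ± 0.15 and Trip13, which resets the checkpoint, fell by -1.73 ± 0.11. Of 17 genes of the anaphase-promoting complex, young cells had 6 higher (35.3%) and 5 lower (29.4%), near the shares of all genes, and aged cells 6 higher (35.3%) and 1 lower (5.88%), including Cdc23 (1.06 ± 0.08) and Anapc5 (0.77 ± 0.07) in aged cells. Of 15 DREAM, MuvB and NF-Y genes, young cells had 9 lower (60%) and 3 higher (20%), with Mybl2, the gene of B-Myb, at -2.54 ± 0.41, and aged cells 7 lower (46.7%) and 4 higher (26.7%), with Rbl2 at 1.30 ± 0.14. Of 16 brake and p53 genes tested, 9 were higher (56.2%) and 3 lower in young cells, and 10 higher (62.5%) and 3 lower in aged ones. Btg2 rose by 2.19 ± 0.09 and Cdkn1a by 1.59 ± 0.09 in young cells, and Gadd45g by 2.54 ± 0.09 and Cdkn2d by 1.21 ± 0.12 in aged cells.

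Signal of other cells moved in both directions with culture, where 29.9% of all genes were lower in young and 32.5% in aged cells. Myeloid markers summed to 23.8 to 67.5 CPM in cultured libraries, and among 9 tested, 8 were lower after culture of young and 9 of aged cells. Endothelial markers, of which 8 of 9 fell at each age, summed to 69.6 to 181 CPM. Pericyte and smooth muscle markers summed to 5.88 to 24.3 CPM in fresh and 28.9 to 59.5 CPM in cultured libraries. Epicardial markers summed to 2.40 to 6.08 CPM in fresh and 12.3 to 44.6 CPM in cultured libraries. Cardiomyocyte sums overlapped, at 0.287 to 3.72 CPM fresh and 2.37 to 23.8 CPM cultured. The part of other cells in the changes of mitosis genes with culture was not tested.

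Between young and aged cells on the substrates, few differences passed the test. Here and below, shares of all genes higher or lower count calls at an adjusted p under 0.05. Members counted by unadjusted p or by the sign of the fold have no share of all genes beside them. Members share libraries and are not independent, so those counts are not read as support. Averaged over the 4 substrates, 1 of 47 genes was higher in aged cells and none lower, where 6.52% and 8.50% of all genes were called, and 5 had an unadjusted p under 0.05. The gene was Aurka, aurora A, which read 17.9 to 38.7 CPM in young and 26.4 to 46.3 CPM in aged cultured libraries, ranges that overlap (log2 fold 0.35 ± 0.10, adjusted p = 0.0202). The call was lost without young SoftY library 2 (adjusted p = 0.0542). The count was 2 without young StiffY library 3, aged StiffY library 1 or 3 or aged SoftA library 2, 3 without young SoftA library 3 or young StiffA library 3, and 2 without the shallow libraries. The log2 folds of all members ran from -0.17 to 0.35. For Cdk1 the 95% interval was 0.01 to 0.28 (adjusted p = 0.169), for Tpx2 -0.23 to 0.04, for Bub3 -0.17 to 0.00 and for Anln -0.16 to 0.08. Further mitosis genes were higher in 2 of 58 (3.45%), Cenph (0.90 ± 0.24) and Espl1, the gene of separase (0.35 ± 0.11). Of 16 brake and p53 genes, 3 were higher (18.8%), including Cdkn2a (1.21 ± 0.23) and Gadd45g (0.32 ± 0.05). The 2 lower ones (12.5%) were Btg2 (-2.07 ± 0.05) and Mdm2 (-0.47 ± 0.05). Endothelial markers were higher in aged cultured cells in 6 of 8 tested and lower in 1.

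Among the cultured groups, young cells on StiffY had the highest mean for 40 of the 47 genes. Aged cells on StiffA were highest for Bub1, Cdca3, Hmmr, Kif20a, Kif23 and Plk1, and aged cells on SoftA for Aurka. Stiff over soft gels raised 10 genes in young cells and lowered none, where 1.66% of all genes were higher and 1.90% lower, and 29 members had an unadjusted p under 0.05. They were Ccnb1 (0.47 ± 0.09), Plk1 (0.45 ± 0.10, adjusted p = 0.00958), Cdca8 (0.42 ± 0.11), Nuf2, a kinetochore subunit that binds microtubules (0.53 ± 0.15, adjusted p = 0.0429), Hmmr, a spindle assembly factor (0.42 ± 0.10), Mki67 (0.60 ± 0.13) and, of cytokinesis, Kif20a, Prc1, Anln (0.51 ± 0.09, adjusted p = 7.70e-04) and Racgap1, a subunit of centralspindlin. Anln read 237, 214 and 168 CPM on StiffY and 175, 201 and 164 CPM on StiffA, against 137 and 143 CPM on SoftY and 142, 134 and 119 CPM on SoftA. No library on a soft gel reached the lowest on a stiff one. Cdk1 (0.23 ± 0.10, adjusted p = 0.251), Bub3 (0.08 ± 0.06) and Smc4 (0.17 ± 0.11) did not pass.

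Split by matrix, in comparisons added after the values were seen, young cells gave calls on young matrix and none on aged matrix, and the test of that difference passed for Top2a alone. Of the 10 genes above, 8 were also called on young matrix. Plk1 was not, at 0.44 ± 0.15 on young matrix (adjusted p = 0.112) and 0.47 ± 0.14 on aged matrix (adjusted p = 0.25). Cdca8 was the other. StiffY over SoftY was higher in 15 of 47 genes and lower in none (2.12% and 2.45% of all genes), with a median log2 fold of 0.54, all 47 folds positive and 36 with an unadjusted p under 0.05. Libraries of the groups did not overlap for 41 genes, against 16.9% of all genes, with only 2 libraries on SoftY. Without SoftY library 1 or 2 the count was 6, and without StiffY library 1 it was 9. Ccnb1 read 65.7 and 54.5 CPM on SoftY and 101, 112 and 108 CPM on StiffY, 1.78-fold higher (log2 0.83 ± 0.13, adjusted p = 1.57e-04). Top2a, topoisomerase II alpha, read 66.7 and 79.1 CPM on SoftY and 121, 123 and 135 CPM on StiffY (0.80 ± 0.13, adjusted p = 1.93e-04). Birc5 (0.91 ± 0.21), Mki67 (0.84 ± 0.19), Nuf2 (0.76 ± 0.22), Kif20a (0.69 ± 0.12), Bub1b (0.62 ± 0.16) and Hmmr (0.61 ± 0.14) led the other roles with calls. Of the most counted members, Cdk1 (0.59 ± 0.15), Cenpa (0.70 ± 0.15) and Anln (0.58 ± 0.13) passed, and Tpx2 (0.43 ± 0.14, adjusted p = 0.0859) and Cdca8 (0.54 ± 0.16, adjusted p = 0.0562) did not.

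On aged matrix, StiffA over SoftA in young cells gave no call among the members by edgeR or by DESeq2, and 5 had an unadjusted p under 0.05 (0.125% and 0.0857% of all genes called). Top2a read 72.2, 85.3 and 93.5 CPM on SoftA and 68.0, 70.7 and 75.9 CPM on StiffA, a log2 fold of -0.23 ± 0.12 (adjusted p = 0.648). The difference between the stiffness effects on the matrices was itself tested. It passed for Top2a alone (-1.03 ± 0.17, adjusted p = 0.00174), with 44 of 47 differences negative, a median of -0.40 and 18 unadjusted p under 0.05 (0.117% of all genes lower and 0.498% higher). Top2a held under each library left out (adjusted p at most 0.0479), and the count was 5 without young SoftA library 2 and 2 without young StiffA library 3. DESeq2 gave 2 genes and one fit of all libraries 3.

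The median fold of matrix age was -0.24 in young and 0.23 in aged cells. In young cells aged over young matrix lowered 2 genes (0.825% of all genes lower, 1.67% higher), Tpx2 (-0.39 ± 0.10, adjusted p = 0.0249) and Racgap1 (-0.53 ± 0.11, adjusted p = 0.00815), with 46 of 47 folds negative and 19 unadjusted p under 0.05. The Tpx2 call was lost in 7 of 11 fits that left out 1 library (adjusted p up to 0.125) and without the shallow libraries (0.106), and that of Racgap1 in 1 (0.148). The count ran from 0 to 4 as single libraries were left out: it was 0 without SoftY library 2, 1 without SoftY library 1, StiffY library 1 or 2, SoftA library 1 or StiffA library 1 or 3, and 4 without SoftA library 3. On stiff gels alone, also added after seeing values, StiffA over StiffY in young cells lowered 4 genes (0.101% of all genes lower, 0.249% higher), all 47 folds were negative with a median of -0.48, and 34 had an unadjusted p under 0.05. The libraries did not overlap for 34 genes, against 6.63% of all genes. Top2a fell by a log2 fold of -0.82 ± 0.11 (adjusted p = 4.66e-04). Birc5 (-0.82 ± 0.19), Racgap1 (-0.65 ± 0.15) and Ccnb1 (-0.61 ± 0.12) were the others, and the count was 7 with DESeq2, without the filter and in one fit of all libraries, 2 without StiffY library 1 or StiffA library 1 and 1 without StiffY library 2 or 3 or StiffA library 2. On soft gels no member passed by either tool, and 1 had an unadjusted p under 0.05 (1.62% of all genes higher, 1.24% lower).

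In aged cells aged over young matrix raised 6 genes and lowered none (4.14% of all genes higher, 3.30% lower), with 22 unadjusted p under 0.05. One fit of all libraries gave 10. Ccna2, cyclin A2, led (0.53 ± 0.13, adjusted p = 0.0124), with Ccnb1 (0.33 ± 0.08), Ccnb2 (0.35 ± 0.09), Cenpa (0.44 ± 0.10, adjusted p = 0.00397), Kif20a (0.31 ± 0.08) and Ect2, the exchange factor that positions the cleavage furrow (0.40 ± 0.12). Ccna2 read 19.7, 22.9 and 21.5 CPM on SoftY and 28.9, 30.3 and 28.6 on StiffY, against 32.4, 34.2 and 36.6 on SoftA and 41.8, 35.7 and 33.5 on StiffA. All 6 libraries on aged matrix lay above all 6 on young matrix. Within stiff gels, a comparison added after seeing values, Cenpa alone passed (0.69 ± 0.13, adjusted p = 0.00342, 1.48% of all genes higher and 1.23% lower, 9 members with an unadjusted p under 0.05). It was 53.0, 53.5 and 41.4 CPM on StiffY and 71.7, 87.2 and 76.9 CPM on StiffA. The count was 0 without StiffY library 3 and 2 without StiffY library 1. Within soft gels none passed by edgeR or DESeq2, and 14 had an unadjusted p under 0.05 (1.35% of all genes higher, 0.709% lower). One fit of all libraries called 1, and leaving out the shallow libraries gave 2.

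The test of matrix age against cell age passed for 1 gene (0.0234% of all genes higher, 0.0701% lower). The gene was Tpx2, at 0.67 ± 0.13 (adjusted p = 0.0448). All 47 differences were positive, with a median of 0.44 against -0.01 over all genes, and 31 had an unadjusted p under 0.05. Young cells on young matrix read 112 and 104 CPM of Tpx2 on SoftY and 154, 153 and 126 on StiffY, and on aged matrix 86.1, 98.6 and 92.0 on SoftA and 92.0, 112 and 93.2 on StiffA. Aged cells read 75.9, 86.7 and 84.2 on SoftY and 87.2, 106 and 128 on StiffY, against 113, 98.2 and 108 on SoftA and 129, 125 and 107 on StiffA. The call was lost in 16 of 23 fits that left out 1 library (adjusted p up to 0.0999) and without the 4 shallow libraries (0.0656), and the count was 5 without young SoftA library 3. It was 3 with DESeq2 and in one fit of all libraries and 2 without the filter. Leaving out any other library than aged SoftY library 1, young and aged StiffY library 3, young SoftA libraries 2 and 3, aged SoftA library 2, young StiffA library 2 and aged StiffA library 3 gave no call in any of the 15 fits. With Ccnb1-ps counts added, Ccnb1 also passed (0.63, adjusted p = 0.0351).

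**Figure D5:**
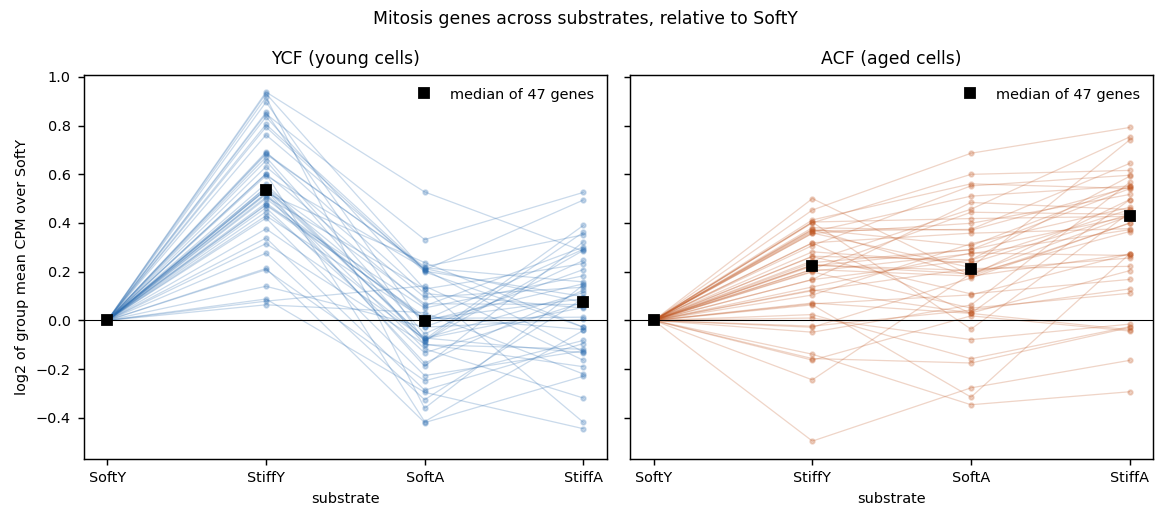
Log2 of the group mean CPM over the SoftY mean (y axis) for each of the 47 genes on the 4 substrates (x axis), young cells in the left panel and aged cells in the right, with black squares at the medians. Young cells peak on StiffY, where the sum is 3241 to 3344 CPM, and aged cells on StiffA, where it is 2883 to 3014 CPM.

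For stiffness in aged cells the calls were few. Stiff over soft gels raised Plk1 alone (0.45 ± 0.10, adjusted p = 0.0323), which was 1 of 1 gene higher in the whole table (0.00779%, and 0.288% lower), and 17 members had an unadjusted p under 0.05. Plk1 read 61.3, 66.5 and 57.0 CPM on SoftY, 81.4, 82.9 and 72.8 on StiffY, 79.7, 64.5 and 70.6 on SoftA and 118, 98.3 and 92.9 on StiffA. Its adjusted p was above 0.05 in 8 of the 12 fits that left out 1 aged library, 2 members were called in one fit of all libraries, and none without SoftY library 3, StiffY library 1 or 2, SoftA library 2 or 3 or StiffA library 2. Neither StiffY over SoftY nor StiffA over SoftA gave a call in aged cells by edgeR or DESeq2, with 9 and 10 unadjusted p under 0.05 (0% and 0.0156% of all genes higher, 0.0545% and 0.350% lower). One fit of all libraries called 1 for the latter. The stiffness effects of young and aged cells did not differ past the threshold for any member (edgeR and DESeq2 counts of 0, 7 unadjusted p under 0.05, 0.319% of all genes higher and 0.467% lower), with 1 lower gene without young SoftY library 2. Stiffness by matrix within aged cells gave no call by either tool and 2 unadjusted p under 0.05 (0% higher and 0.0234% lower of all genes).

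Both changes together, StiffA over SoftY, raised 12 genes in aged cells and none in young cells. In aged cells none fell, 27 members had an unadjusted p under 0.05, and 2.24% of all genes were higher and 1.97% lower. The median log2 fold was 0.44, and libraries did not overlap in the higher direction for 29 genes, against 12.3% of all genes. Ccna2 (0.81 ± 0.19, adjusted p = 0.00994), Plk1 (0.76 ± 0.13, adjusted p = 9.44e-04), Cdca8 (0.60 ± 0.15), Anln (0.57 ± 0.12), Hmmr (0.46 ± 0.13) and Top2a (0.44 ± 0.11) led their roles, and Ccnb1, Ccnb2, Cdk1 (0.53 ± 0.13), Tpx2 (0.56 ± 0.13), Kif20a and Prc1 were the others. Cdk1 read 80.2, 80.2 and 66.5 CPM on SoftY and 104, 96.1 and 124 CPM on StiffA. The count was 7 without SoftY library 1 or 3 or StiffA library 2 or 3, and 6 without StiffA library 1. In young cells no member was called by edgeR or DESeq2, 7 had an unadjusted p under 0.05, and the median was 0.07 (2.99% of all genes higher, 2.27% lower). The difference between the ages in this contrast was not tested.

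The other lists were also read on the substrates. Stiff gels raised 7 of 58 further mitosis genes in young cells (12.1%, against 1.66% of all genes), among them Gtse1 (0.47 ± 0.10) and the centrosomal kinase Nek2 (0.65 ± 0.16), 4 of 28 genes of G1/S and S phase (14.3%), such as Rrm2 (0.39 ± 0.08), and Ccnd1 (0.61 ± 0.07). They also raised 5 of 16 brake and p53 genes (31.2%) in young cells, including the p53 inhibitor Mdm2 (0.44 ± 0.08) and the brake Cdkn1a (0.42 ± 0.08), and 0 of 16 in aged cells. Aged over young matrix raised 5 of 16 brake and p53 genes in young cells (31.2%, against 1.67% of all genes). In aged cells it raised 6 of 16 (37.5%, against 4.14%). StiffA over SoftY raised 5 of 16 in young cells (31.2%, against 2.99%) and 2 of 16 in aged cells (12.5%, against 2.24%). StiffA over SoftY in aged cells gave 3 calls among 58 further mitosis genes, Cenpi, Tacc3 and Gtse1 (5.17%), and 2 among 28 genes of G1/S and S phase (7.14%), where 2.24% of all genes were higher. Endothelial markers moved with this contrast, higher in 3 of 8 tested, with sums of 95.7 to 115 CPM on SoftY and 124 to 172 CPM on StiffA, and with matrix age in aged cells, higher in 4 of 8. Myeloid sums in the aged cells on SoftY and StiffA lay within 23.8 to 36.5 CPM. The part of these cells in the substrate results was not tested.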

How the data were processed

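RNA of 29 libraries was measured by sequencing from 20 ng of input each, amplified with a low input NEBNext kit, as the labels' protocols state. The authors deposited raw counts per gene, and STAR 2.7.8a and mm39 are named in the submitters' processing notes. HTSeq is known as the counter from the name of the table only. Which annotation was used, and whether strand was, is not given in the sources used here, so reads of overlapping genes may be shared. All 29 columns were tied to a sample, and none was left over.

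Counts were tested with edgeR 4.0.16 under R 4.3.3, using TMM factors, filterByExpr with a minimum count of 10, the quasi-likelihood F test, and Benjamini-Hochberg adjustment over all genes of a comparison, with calls at an adjusted p under 0.05. Fresh libraries were fitted alone (6 libraries, 11786 genes), cultured libraries together (23 libraries, 12841 genes), and cultured against fresh over all 29 (13523 genes). SE is the absolute log2 fold over the square root of F, and 95% intervals take the normal approximation. Means over substrates weigh groups equally. In all 23 comparisons were made, 8 of them of single pairs of groups added after values were seen. Alternatives were DESeq2 1.42.0, median-ratio size factors, no filter, a replicate block, one fit of all libraries, each library left out, the 4 libraries under 1500000 counts left out, and Ccnb1-ps counts added. Fits without a young SoftY library left a single library in that group, so their spread came from the other groups. Replicate numbers were not treated as pairs. The test was checked on simulated counts.

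The members and lists were chosen with earlier results of these data known. Named per role and comparison were the member with the highest mean CPM and the called member with the largest fold, and from other lists up to 4 called genes with the smallest p. Other genes named complete a count or a list. Promoters came from RefSeq GRCm38.p6 and were matched by symbol. They were searched for TTTGAA and CCAAT on both strands. 8 members had no entry: Ccna2, Cdc25c, Aurkb, Tpx2, Kif20a, Incenp, Foxm1 and Smc4.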

Additional observations from a re-analysis of the deposited data

Results flagged for a closer look

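The effect of culture differed between young and aged cells by the interaction test in 46 of the 47 mitosis genes, which marks it for a closer look. Among the most counted members of the roles, the difference of log2 folds, aged minus young, was 1.57 for Cdk1, 1.52 for Tpx2, 0.39 for Bub3, 1.68 for Cdca8, 1.94 for Cenpa, 1.63 for Kif22, 1.87 for Anln and 1.31 for Smc4. These values are the age gap in culture minus the age gap in fresh cells. Only Aurka passed the test of age in culture, so they mostly restate the fresh gap.

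The effect of matrix age differed between young and aged cells in 1 member, Tpx2, by 0.67. The effect of stiffness differed between young and aged matrix in young cells in 1 member, Top2a, by -1.03. No group held 4 or more libraries, so single libraries were not screened as outliers within groups.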

How the results depend on the processing

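No result changed its direction. The 46 genes lower in fresh aged cells, lower in cultured young cells and different between the ages in their response to culture stayed at 46 under every alternative run. With the replicate block the member counts were 1 for StiffA over SoftY in young cells, 2 for stiffness in aged cells, 11 for matrix age in aged cells, 4 for matrix by cell age, 1 for StiffA over SoftA in aged cells, 7 for StiffA over StiffY in young cells and 2 for SoftA over SoftY in aged cells. Numbers were not taken as pairs, because the labels state no pairing. Same-numbered cultured libraries of an age had correlations of -0.268 to 0.376 (median 0.0718, against -0.0593 for other numbers). Of 23 cultured libraries 14 matched their own number best, and of all 29 libraries 20 did. Young SoftY library 2 carries the library number 3, but entered this check and the block as replicate 2. The check does not settle whether the numbers mark pairs. One fit of all libraries gave, for the same comparisons without the first, 2, 10, 3, 1, 7 and 1, and 3 genes lower for stiffness by matrix in young cells. DESeq2 gave 2 for that, 3 for matrix by cell age and 7 for StiffA over StiffY in young cells, and no filter gave 2 and 7 for the latter pair. Without the 4 shallow libraries 2 genes were called between ages in culture and 2 for SoftA over SoftY in aged cells. The causes were not tested. With single libraries left out, the counts ran from 18 to 26 higher and 4 to 6 lower for culture in aged cells, 1 to 3 for age in culture, 6 to 10 for StiffA over SoftY in aged cells, 7 to 11 for stiffness in young cells and 0 to 1 in aged cells, 0 to 4 and 5 to 8 for matrix age in young and aged cells, 1 to 5 for stiffness by matrix in young cells, 0 to 1 for stiffness by cell age, 0 to 5 for matrix by cell age, 6 to 14 for StiffY over SoftY and 1 to 4 for StiffA over StiffY in young cells, and 0 to 2 for StiffA over StiffY in aged cells. At 1192668 to 3275089 counts a library, low members such as Cdc25c, at 3.72 to 17.4 CPM in culture, rest on few reads.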
